A study of Caenorhabditis elegans with 8 samples.

Results

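The genes described here build and monitor meiotic chromosomes in Caenorhabditis elegans. They are a named list of 33 genes for cohesins, the chromosome axis, the synaptonemal complex, pairing centres, double-strand breaks, repair and crossovers. Of these, 32 had a row under their symbol among the 46093 genes of the estimated count table, and all 32 were tested among 12375 genes with enough counts. The listed name rad-54 belonged to no row: the name table instead holds rad-54.L, rad-54.L2 and rad-54.B, which were not counted as members. Poly(A) RNA of whole worms was sequenced from a strain labelled atf-6 and from the wild-type laboratory strain N2, with 4 libraries of each. The ATF-6 protein sits in the membrane of the endoplasmic reticulum (ER) and, as a transcription factor, responds to unfolded proteins there. The labels name no allele and no transgene. Both strains were day 1 adults raised at 20 °C on OP50-1 bacteria for 72 h from synchronized first-stage larvae, with about 1000 worms in each replicate.

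In meiosis, cohesin rings holding sister chromatids are organized into an axis by HORMA-domain proteins, and the synaptonemal complex zips the axes of homologous chromosomes together. Zinc-finger proteins at pairing centres bring homologs together in the worm, topoisomerase-like SPO-11 cuts the DNA, and RAD-51 guides its repair so that crossovers can form. In adult hermaphrodites these events fill much of the gonad, where nuclei pass through meiotic prophase in spatial order. A whole-worm RNA level mixes the number of germ cells with the RNA in each. Fewer germ cells and less RNA per germ cell therefore cannot be told apart in these values.

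Library totals ran from 12664222 to 21698298 estimated counts. The atf-6 transcript was not lower in the strain named for it, at 14.1 to 16.0 CPM (counts normalized for the size of each library) in atf-6 libraries against 10.8 to 13.2 CPM in wild type (log2 fold change 0.28 with an SE of 0.0911, edgeR adjusted p = 0.346), and no allele is given, so this level does not check the strain labels. Over all genes, 88 (0.711%) were higher and 13 (0.105%) lower in atf-6 at an adjusted p of 0.05 (edgeR quasi-likelihood test).

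None of the 32 meiotic genes passed the test between the strains. In edgeR 0 of 32 had an adjusted p under 0.05, the background over all tested genes being 0.816%. No member had an unadjusted p under 0.05 either, against 866 of the 12375 tested genes (7.0%). DESeq2 and limma-voom also called 0 of 32, against backgrounds of 1.44% and 0.776%. The smallest unadjusted p was 0.0583 (coh-3, edgeR adjusted p = 0.752). Log2 fold changes, atf-6 minus wild type, ran from -0.14 for chk-2 to 0.13 for zim-2.

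The intervals give the range of differences around each estimate. The 95% interval of every member lay within 1.5-fold in either direction, which held for 71.2% of all tested genes. For 25 of the 32 it lay within 1.25-fold, against 42.4% of all tested genes. The lowest interval end was 0.754-fold (him-8) and the highest 1.37-fold (spo-11). The him-8 counts followed a very short transcript with few reads, described below. Its log2 fold change was -0.12 here and 0.05 with plain sums of transcript reads. A p above the threshold does not show that the levels were equal.

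Most of the estimates lay a little below 0. Log2 fold changes were negative for 25 of 32 members (78.1%), against 49.3% of all tested genes. Their median was -0.07, or 0.954-fold, beside a median of 0.00 over all tested genes. The groups of 2 members did not overlap, coh-3 and rad-51, both lower in atf-6, a share of 6.25%. Groups that do not overlap were found for 5.79% of all tested genes, and lower in atf-6 for 2.02%. For 21 members the difference between strain means on the log2 scale was smaller than the SD within strains. The share over all tested genes was not counted. With 4 libraries of each strain, most genes without any difference would also meet this, so the count is only a description.

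**Figure D1:**
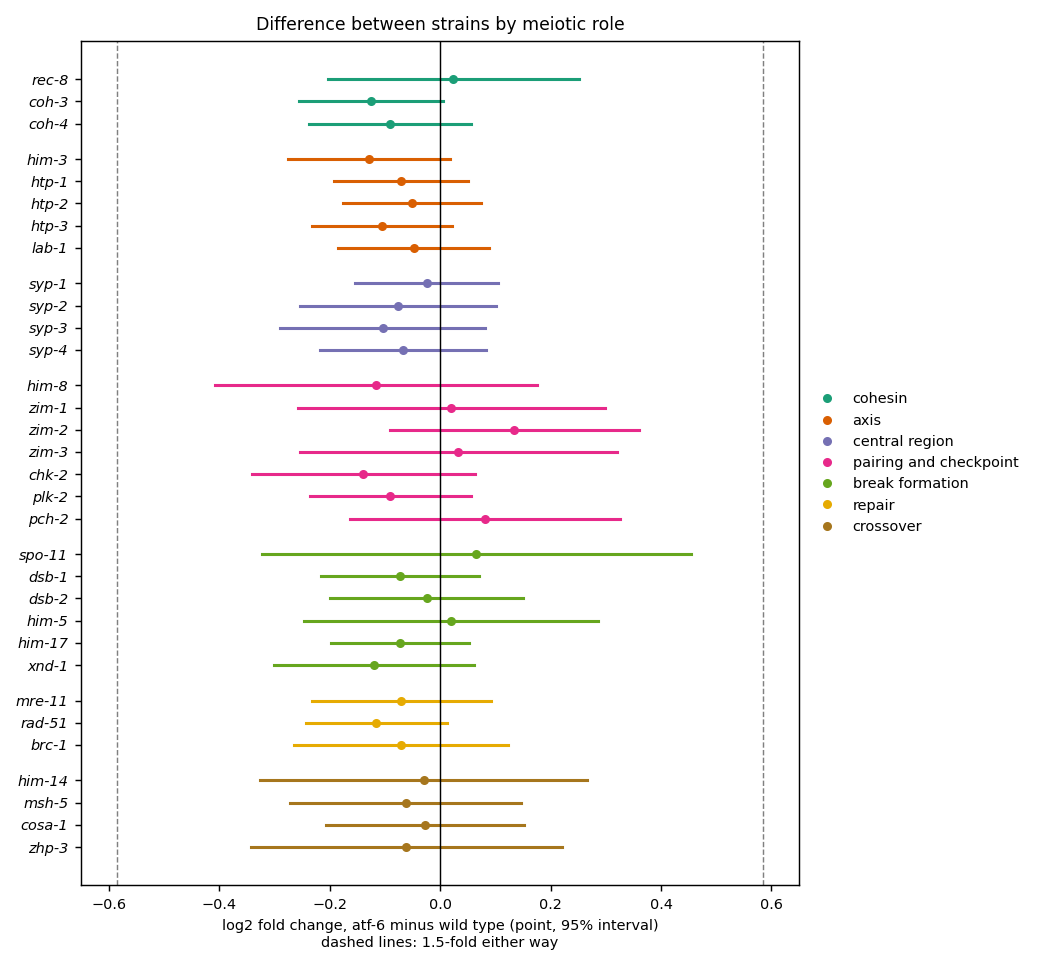
Log2 fold change (atf-6 minus wild type, x axis) of the 32 meiotic genes, grouped by role, with points for the edgeR estimate and lines for the 95% interval. All 32 intervals include 0 and stay inside the dashed lines at 1.5-fold; 25 points lie below 0.

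The meiotic cohesin subunits were the first class. rec-8 encodes the meiotic kleisin that holds sister chromatids until the divisions, and coh-3 and coh-4 encode a pair of closely related meiotic kleisins that can stand in for each other. rec-8 had 80.9, 70.8, 61.1 and 57.5 CPM in atf-6 replicates 1 to 4, against 60.7, 70.5, 67.0 and 66.9 CPM in wild-type replicates 1 to 4. The groups overlapped fully, since atf-6 held both the highest and the lowest library (log2 fold change 0.02, SE 0.103). The rec-8 counts followed a very short transcript with few reads, described below.

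coh-3 had 41.7, 43.1, 39.7 and 40.3 CPM in atf-6 against 43.8, 46.2, 45.2 and 44.3 CPM in wild type. Every atf-6 library was below every wild-type library, by a small margin. Mean levels were 41.2 ± 1.51 CPM in atf-6 and 44.9 ± 1.06 CPM in wild type (SD, n = 4 each; log2 fold change -0.13 with an SE of 0.0591, edgeR adjusted p = 0.752). coh-4 had 26.4, 28.6, 29.0 and 28.8 CPM in atf-6 against 31.2, 30.2, 30.1 and 28.8 CPM in wild type, with atf-6 replicate 1 the lowest library (log2 fold change -0.09, SE 0.0666). Reads of such similar genes can be divided either way by the quantifier, so the pair was also added up. The sum was 69.4 ± 1.60 CPM in atf-6 and 75.0 ± 1.38 CPM in wild type (SD, n = 4 each), from 68.1 to 71.7 CPM in atf-6 against 73.1 to 76.4 CPM in wild type, so the sums did not overlap either. coh-3, which did not overlap by itself, was the larger part of every sum. The coh-3 to coh-4 ratio was 1.37 to 1.58 in atf-6 and 1.40 to 1.54 in wild type.

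All 5 axis genes had negative log2 fold changes, between -0.13 and -0.05, and the smallest adjusted p among them was 0.810. him-3 encodes a HORMA-domain protein of the axis core. It had 74.7, 84.7, 79.5 and 82.1 CPM in atf-6 against 93.3, 88.1, 80.1 and 89.4 CPM in wild type, and the groups overlapped through wild-type replicate 3 (log2 fold change -0.13, SE 0.0663). The closely related HORMA-domain genes htp-1 and htp-2 act in pairing, synapsis and cohesion. htp-1 had 77.3, 73.2, 70.2 and 75.9 CPM in atf-6 against 78.0, 78.8, 77.9 and 76.6 CPM in wild type. Values of htp-2 were 51.9, 55.9, 51.5 and 54.5 CPM in atf-6 and 56.0, 55.6, 54.3 and 55.7 CPM in wild type. Their sum was 127.6 ± 3.94 CPM in atf-6 and 133.2 ± 1.16 CPM in wild type (SD, n = 4 each), with the highest atf-6 sum at 130.4 and the lowest wild-type sum at 132.2 CPM. htp-3 encodes the HORMA-domain protein needed to load the others, and its log2 fold change was -0.10 (SE 0.0573). For lab-1, which protects cohesion on part of each chromosome, it was -0.05 (SE 0.0622).

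The 4 central-region genes of the synaptonemal complex, syp-1 to syp-4, encode its transverse filaments and their partners. Their log2 fold changes ran from -0.10 (syp-3) to -0.02 (syp-1), with no adjusted p below 0.904. syp-2, the most abundant of them per length, had 42.3, 45.6, 45.2 and 44.5 CPM in atf-6 against 47.4, 48.8, 40.0 and 51.05 CPM in wild type. Wild-type replicate 3 was the lowest of all 8 libraries here and the other 3 wild-type libraries were the highest.

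The pairing and checkpoint class had the widest range. him-8 and zim-1, zim-2 and zim-3 encode the zinc-finger proteins that bind the pairing centres of the X chromosome (him-8) and of the autosomes (the zim genes). They lie side by side on the plus strand of chromosome IV within 16.9 kb, from 10547086 to 10563974 (WBcel235), and the annotated spans of zim-1 and zim-2 overlap by 267 bases. Log2 fold changes were 0.02 (SE 0.126) for zim-1, 0.13 (SE 0.102) for zim-2, 0.03 (SE 0.130) for zim-3 and -0.12 (SE 0.132) for him-8. him-8 had 34.4, 30.4, 33.7 and 44.5 CPM in atf-6 against 36.8, 44.3, 41.9 and 32.1 CPM in wild type, so replicate 4 was the highest atf-6 library and the lowest wild-type one. The him-8 counts followed a very short transcript with few reads, described below.

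chk-2 and plk-2 encode kinases that drive pairing, and pch-2 an ATPase that remodels HORMA-domain proteins. plk-2 had 133.8, 128.1, 113.4 and 128.4 CPM in atf-6 against 126.3, 137.5, 140.5 and 131.4 CPM in wild type (log2 fold change -0.09, SE 0.0657). The replicate 3 libraries were the extremes, lowest in atf-6 and highest in wild type, and the groups overlapped. For chk-2 the log2 fold change was -0.14 (SE 0.0915), and for pch-2 0.08 (SE 0.110).

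Break formation was represented by spo-11, which makes the cuts, by dsb-1 and dsb-2, which are needed for them, and by him-5, him-17 and xnd-1, chromatin-linked factors that promote breaks. Their log2 fold changes ran from -0.12 (xnd-1) to 0.07 (spo-11), with a smallest adjusted p of 0.884. xnd-1 had 163.5, 157.3, 131.7 and 147.1 CPM in atf-6 against 146.3, 163.2, 178.6 and 163.1 CPM in wild type. him-5 had 19.7, 16.9, 15.4 and 14.1 CPM in atf-6 against 17.8, 17.7, 15.6 and 14.1 CPM in wild type, so both strains spanned nearly the same range. Its counts, too, followed a very short transcript with few reads. spo-11, shown because it varied most, had 20.9, 19.8, 34.9 and 24.8 CPM in atf-6 against 29.8, 22.4, 21.5 and 22.9 CPM in wild type. A single library of each strain stood high, atf-6 replicate 3 and wild-type replicate 1.

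Among repair genes, rad-51 encodes the recombinase that coats cut ends, mre-11 a nuclease that trims them, and brc-1 the worm BRCA1 homolog. rad-51 had 85.2, 83.5, 76.4 and 81.6 CPM in atf-6 against 91.1, 85.2, 86.95 and 90.5 CPM in wild type. The groups did not overlap, but atf-6 replicate 1 and wild-type replicate 2 were almost level. Mean levels were 81.7 ± 3.82 CPM in atf-6 and 88.4 ± 2.83 CPM in wild type (SD, n = 4 each; log2 fold change -0.12 with an SE of 0.0578, edgeR adjusted p = 0.792). A log2 fold change of -0.07 was found both for mre-11 (SE 0.0731) and for brc-1 (SE 0.0875).

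The crossover genes encode the MutS-family proteins HIM-14 and MSH-5, the cyclin-like COSA-1 and the RING-finger protein ZHP-3. All 4 had small negative log2 fold changes, from -0.06 (msh-5) to -0.03 (cosa-1), and the smallest adjusted p was 0.933. zhp-3 had 34.4, 36.6, 52.2 and 42.05 CPM in atf-6 against 48.5, 41.8, 38.4 and 44.2 CPM in wild type. Here too atf-6 replicate 3 and wild-type replicate 1 were the highest of their strains.

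**Figure D2:**
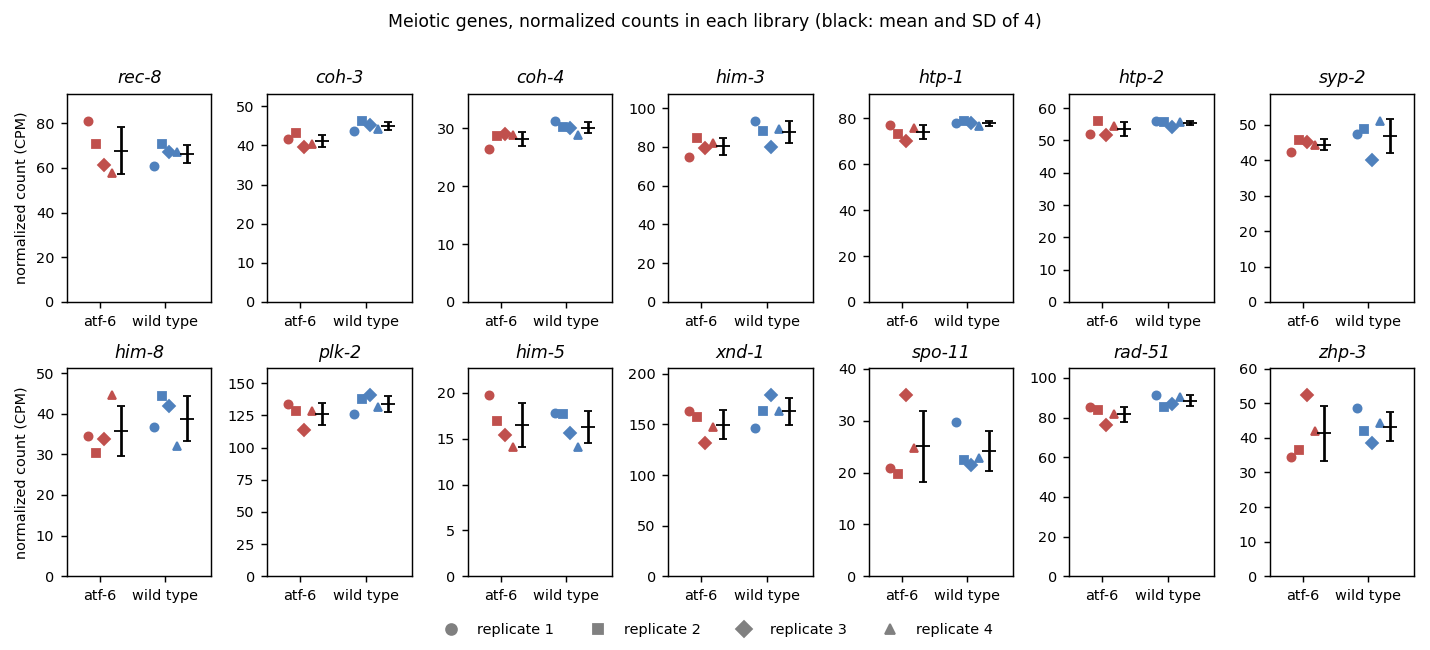
Normalized counts (CPM, y axis from 0) of 14 meiotic genes in the 4 atf-6 libraries (red, left) and the 4 wild-type libraries (blue, right), with symbols for replicates and black marks for the mean and SD. coh-3 and rad-51 separate by strain by a small margin, while spo-11 reaches 34.9 CPM in atf-6 replicate 3 alone.

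Levels were compared between genes in TPM, which is scaled for transcript length and depth. After leaving out transcripts with an effective length under 100 bases, a step added after the data were seen, mean TPM over the 8 libraries ran from 4.20 (chk-2) to 50.7 (him-3), with a median of 23.2 beside 8.83 over all tested genes. The next highest were lab-1 at 44.6 and syp-2 at 39.3 TPM, and the next lowest msh-5 at 6.77 and him-14 at 7.50 TPM. By class, cohesin genes spanned 7.82 to 13.1 TPM, below every axis gene (22.1 to 50.7 TPM) and every central-region gene (21.6 to 39.3 TPM). Crossover genes spanned 6.77 to 23.9 TPM. Every member had at least 155 estimated counts in every library. The within-strain coefficient of variation had a median of 7.35% over the members, beside 12.4% over all tested genes.

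TPM summed over all transcripts came mostly from 1 very short transcript in 3 members. him-8, him-5 and rec-8 each have an annotated transcript so short that the quantifier gave it an effective length (the number of positions a fragment can start from) of 5, 8 and 34 bases. T07G12.12b, of 120 bases, took 9.27% of the him-8 reads but 93.7% of its TPM. D1086.4b took 19.5% of the him-5 reads and 94.5% of its TPM, and W02A2.6c took 7.78% of the rec-8 reads and 84.2% of its TPM. With these included, him-8 was at 336 TPM in atf-6 and 355 TPM in wild type; without them it was at 22.3 TPM in atf-6 and 21.4 TPM in wild type. The deposited gene counts of these members followed the short transcripts too. In atf-6 and wild-type replicate 3 the him-8 count was 705 and 658, and its T07G12.12b reads 62.3 and 61.95. Reads of its long transcript T07G12.12a were 924.7 and 392.0. For him-5 and rec-8 the 8 libraries had the same order by count as by short-transcript reads. CPM, fold changes and intervals of these 3 genes are thus tied to transcripts with few reads. The direction of these genes also differed between the deposited gene counts and plain sums. With plain sums of transcript reads the log2 fold change of him-8 was 0.05 in place of -0.12, that of him-5 -0.08 in place of 0.02, and that of rec-8 -0.09 in place of 0.02, and none passed (edgeR adjusted p = 0.974, 0.948 and 0.948).

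Between libraries of the same strain the members did not vary in a single way. In wild type, replicate 1 was the highest library for 17 members and replicate 3 the lowest for 15. In atf-6, replicate 3 was the highest library for 11 members and the lowest for 10. Relative to their strain means of log2 CPM, 13 members were higher in atf-6 replicate 3 and lower in wild-type replicate 3, 11 had the opposite pattern, and 8 had neither. Over all tested genes these counts were 4448, 4379 and 3548, so the split was not confined to meiotic genes. spo-11, zim-1, zim-2, zim-3, pch-2, zhp-3 and him-14 were of the first kind. xnd-1, syp-3, syp-4, plk-2 and htp-3 were of the second.

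**Figure D3:**
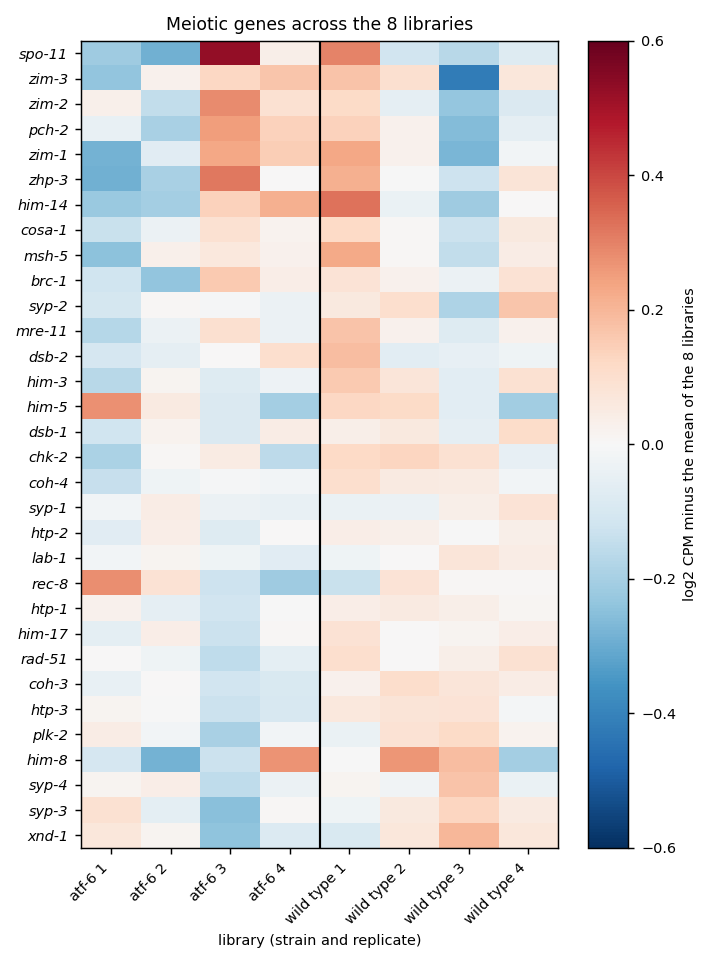
Log2 CPM of the 32 meiotic genes (rows) in each library (columns, atf-6 left of the black line), minus the gene's mean over the 8 libraries, sorted by the difference between the replicate 3 libraries. Genes at the top are red in atf-6 replicate 3 and blue in wild-type replicate 3, and genes at the bottom the reverse.

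The quantifier's effective length moved with this pattern. Between atf-6 replicate 3 and wild-type replicate 3, a pair chosen after the data were seen, the log2 ratio of effective length was 0.43 for spo-11, 0.28 for zim-2 and 0.25 for pch-2. The log2 ratios of CPM of these genes between the same libraries were 0.70, 0.52 and 0.51. For xnd-1, plk-2 and syp-4 the effective length ratios were 0.02, 0.02 and 0.04, and the CPM ratios -0.44, -0.31 and -0.33. Across the 32 genes of these libraries Spearman's rho was 0.627, and across 12304 tested genes 0.512; genes share the library and are not independent, so these are descriptions. him-8 and syp-3 stood off the trend, with effective length ratios of 0.34 and 0.22 and CPM ratios of -0.31 and -0.38. The effective length used was that of each gene's most-read transcript. For him-8, him-5 and rec-8 the count followed a very short transcript instead. Their values therefore pair different transcripts, and the place of him-8 off the trend cannot be read as an exception. The part of effective length in the differences between libraries was not tested.

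**Figure D4:**
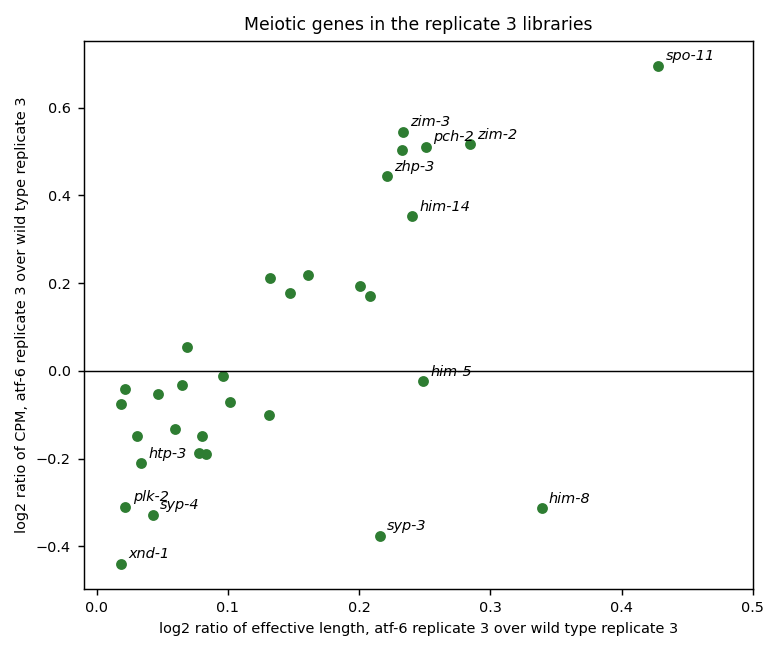
Each point is a meiotic gene: the log2 ratio of effective length of its most-read transcript (x axis) against the log2 ratio of CPM (y axis), atf-6 replicate 3 over wild-type replicate 3. spo-11 lies at the upper right, xnd-1 at the lower left, and him-8 and syp-3 apart at the lower right. The counts of him-8, him-5 and rec-8 follow a very short transcript that is not the most-read one.

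Other genes of the same processes gave a similar picture. The lists covered cohesin loading, synapsis, break, repair, crossover, DNA damage checkpoint and meiotic division genes. Of 80 further tested genes in them, 0 passed in edgeR over all genes, against 0.816% of all tested genes. An unadjusted p under 0.05 was found for 2 of the 80, wee-1.3 and helq-1, against 7.0% of all tested genes. limma-voom called 0, against 0.776% of all tested genes. DESeq2 called 1 of the 80, against 1.44% of all genes it tested. That gene was wee-1.3, a kinase that restrains entry into division. It averaged 178 ± 2.36 CPM in atf-6 and 198 ± 5.41 CPM in wild type (SD, n = 4 each; log2 fold change -0.15, SE 0.0495, edgeR adjusted p = 0.357). Of the 80 genes 64 had negative log2 fold changes, against 49.3% of all tested genes, with a median of -0.06. List medians ran from -0.08 for meiotic division to -0.02 for crossover and resolvase genes.

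Lists of other germline genes had medians close to that of the meiotic genes. The median log2 fold change was -0.08 for 9 stem-cell and meiotic-entry genes, -0.09 for 9 P granule genes and -0.08 for 14 oocyte genes, and 0 genes of these lists passed in edgeR, DESeq2 or limma-voom (0, 1 and 1 at an unadjusted p under 0.05 in edgeR). Summed levels overlapped in all 3 lists, for oocyte genes at 12630 to 14390 CPM in atf-6 and 13330 to 15080 CPM in wild type. Summed over the 32 meiotic genes the level was 1904 to 1957 CPM in atf-6 and 1970 to 2063 CPM in wild type. These sums did not overlap, and differed by a few percent (1928 ± 23.2 CPM in atf-6 and 2013 ± 38.7 CPM in wild type, SD, n = 4 each). How often sums over other sets of genes separate by strain was not counted. The sums of the 80 other genes of these processes did not overlap either, at 9318 to 9798 CPM in atf-6 and 9927 to 10190 CPM in wild type. Among the separate lists of these genes the same held for cohesin and its loading factors, at 1164 to 1203 CPM in atf-6 and 1211 to 1308 CPM in wild type, and the sums of the other 6 lists overlapped.

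Sperm markers were the exception among germline lists. Of 18 listed sperm genes 12 were tested. In edgeR 5 rose and 0 fell, the background of higher genes being 0.711%, and 7 did not pass. The 5 were msp-19, msp-57, msp-55, msp-53 and spe-11. Among the 7, log2 fold changes were 1.05 for msp-3, 0.82 for gsp-3 and 1.2 for gsp-4. They were 0.02 for spe-6, 0.14 for spe-41, 0.16 for spe-4 and 0.45 for fer-1. Levels were low, with wild-type means from 0.52 CPM (spe-11) to 10.1 CPM (msp-57). The median log2 fold change of the 12 was 1.08. msp-57 and msp-19, genes of the sperm motility protein MSP, rose by 1.22 and 1.12 on the log2 scale (SE 0.189 and 0.175, edgeR adjusted p = 0.0242 for both). MSP genes are near-identical copies, so the division of reads among them is uncertain. The number of these calls changed when single libraries were left out: 0 of the 12 sperm genes passed without wild-type replicate 1, wild-type replicate 4 or atf-6 replicate 4, 1 without wild-type replicate 2, 2 without atf-6 replicate 1, and 3 without atf-6 replicate 2 or atf-6 replicate 3. Without wild-type replicate 3 the same 5 passed, and 4 of them did without both replicate 3 libraries. The sperm median stayed between 0.90 and 1.17 in the fits without 1 library. The sperm markers summed to 64.9 to 93.7 CPM in atf-6 and 29.8 to 43.8 CPM in wild type. Their median had the opposite sign to that of the meiotic genes, and their part in the meiotic values was not tested. Somatic lists of intestine, muscle, epidermis and neurons had medians from -0.01 to 0.10 with 0 genes past the threshold in edgeR, DESeq2 or limma-voom; 1 of them, myo-3, had an unadjusted p under 0.05 in edgeR. Of 10 early embryonic markers 4 were tested, with 0 past the threshold in the same 3 tools and 0 at an unadjusted p under 0.05 in edgeR, and summed to 4.61 to 5.45 CPM in atf-6 and 4.00 to 5.09 CPM in wild type.

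**Figure D5:**
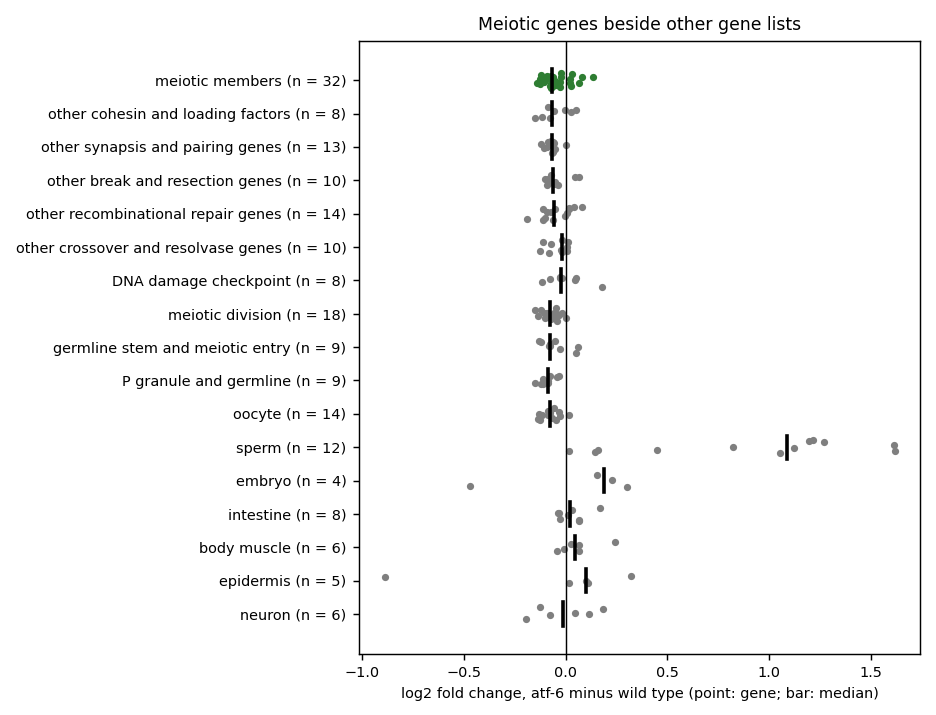
Log2 fold change (atf-6 minus wild type, x axis) of single genes (points) in the meiotic list (green) and in other lists (grey), with bars at the medians. The meiotic genes and the germline and oocyte lists sit just below 0, and the sperm list has its median at 1.08.

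The meiotic genes were spread unevenly over the genome. None of the 32 lies on the X chromosome, which holds 14.3% of the tested genes, and 12 lie on chromosome IV, 37.5% against 16.7% of the tested genes. The others are on chromosomes V (8), I (6), II (3) and III (3). The annotated spans of 17 members overlap another annotated gene. Examples are spo-11 with the ER chaperone gene enpl-1 and him-14 with nos-2, each on the other strand. The share of all tested genes with such an overlap was not counted. The sources used here do not say whether strand was used in counting, so values of these members can include reads of their neighbours.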

How the data were processed

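The authors deposited estimated counts per gene, as whole numbers not scaled for library size, and per-sample files with estimated counts, TPM and effective length per transcript (per the file headers). The gene counts were not plain sums of transcript reads. syp-3, with 1 transcript, had 516 counts and 539.8 reads in atf-6 replicate 3, and 503 counts and 464.5 reads in wild-type replicate 3. Its log2 ratio of effective length between these libraries was 0.22. For htp-2 that ratio was 0.02, with 1077 counts and 1071 reads, and 852 counts and 856.4 reads. Build WBcel235 and the tools STAR 2.5.3a, Salmon 0.9.1 and DESeq2 1.19.51 appear, without roles, in the submitters' processing notes. Libraries were stranded TruSeq mRNA, per the labels' protocols. Table columns were tied to samples through the library number of each sample's own file. The labels describe independent replicates; in all 28 pairs of libraries the counts differed by more than sampling noise (chi-square per degree of freedom at least 3.72).

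The test was edgeR's (4.0.16, R 4.3.3; filterByExpr, TMM, robust quasi-likelihood F-test, two-sided, Benjamini-Hochberg over 12375 genes, threshold 0.05). CPM uses TMM-scaled totals. The SE is the absolute log2 fold change over the square root of F, and 95% intervals use the test's degrees of freedom. The model was tested on simulated counts with known changes. TPM was summed over transcripts matched by name (57844 of 58105); leaving out transcripts with an effective length under 100 bases was added after the data were seen. Positions are from Ensembl's WBcel235 annotation. No sequence was used here.

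The meiotic genes and all lists were chosen with earlier results of these data known. Values per library are given for members whose groups did not overlap, the member of highest TPM in each class (with and without short transcripts), and the htp and coh pairs; spo-11 was added after its values were seen. Alternatives were RLE and upper-quartile scaling, other count filters, DESeq2 1.42.0, limma-voom (limma 3.58.1), a replicate block, plain read sums and leaving out libraries.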

Additional observations from a re-analysis of the deposited data

Results flagged for a closer look

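Among the 64 groups of 4 libraries formed by the 32 meiotic genes in both strains, 4 held a library set apart from the other 3, where its gap to the nearest, as a share of the group's range, exceeded Dixon's critical value at 95%. About 1 group in 20 is expected to do so by chance. coh-4 was at 26.4 CPM in atf-6 replicate 1, with the other atf-6 libraries at 28.6 to 29.0 CPM. msh-5 was at 40.7 CPM in atf-6 replicate 1, below 49.1 to 50.5 CPM in the others. In wild-type replicate 1, spo-11 was at 29.8 CPM and dsb-2 at 40.8 CPM, above 21.5 to 22.9 CPM and 34.4 to 35.3 CPM in the other wild-type libraries. All 4 were in replicate 1 libraries, low in atf-6 and high in wild type.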

How the results depend on the processing

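No meiotic gene passed the threshold in any of the 17 alternative settings run, and the lowest adjusted p of a member in them was 0.461. The median log2 fold change of the members stayed between -0.09 and -0.04, with 22 to 28 of the 32 members below 0. Relative to the median of all genes it was -0.07 under TMM, RLE and upper-quartile scaling. These scalings shift all genes by nearly the same amount, so that agreement follows from the method and is no test of the median. The 8 fits without 1 library each gave members' medians from -0.08 to -0.05.

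The count of all genes past the threshold, 101, was 194 with DESeq2 and 39 with plain read sums. Without 1 library it ran from 16 to 107: it was 107 without wild-type replicate 3 and at most 41 without any other single library. With the replicate number as a block it was 4, with 0 members and 0 sperm markers past the threshold and a members' median of -0.07. Of the sperm markers 2 passed with plain read sums. Same-numbered libraries did not deviate together (correlations from -0.407 to 0.0430, and 0 of the 8 libraries correlated best with its own number). These values showed no pairing by number. They cannot tell whether same-numbered cultures were handled together.

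Directions of members near 0 changed with the setting. Under upper-quartile scaling syp-1 had a log2 fold change of 0.0020 and dsb-2 of 0.0021. Plain read sums gave -0.0933 for rec-8, 0.0484 for him-8, -0.0415 for zim-1 and -0.0812 for him-5, and DESeq2 gave -0.0039 for zim-1 and -0.0022 for him-5. Leaving out 1 library, or both replicate 3 libraries, the ranges crossed 0 for 12 members. They were -0.0705 to 0.0938 for rec-8, -0.0939 to 0.0220 for syp-4, -0.13 to 0.11 for zim-1, -0.11 to 0.11 for zim-3 and -0.0609 to 0.151 for pch-2. For break and crossover genes they were -0.18 to 0.18 for spo-11, -0.0641 to 0.0337 for dsb-2, -0.0708 to 0.0873 for him-5, -0.148 to 0.0761 for him-14, -0.15 to 0.0041 for msh-5, -0.108 to 0.0113 for cosa-1 and -0.245 to 0.0171 for zhp-3. The cause was not tested. No other member changed direction in any setting except syp-1 and him-8, as given above. The lowest count of any member in a library was 155, for chk-2, and the part of counting error in the spread between libraries was not tested.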

Other observations

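The name rad-54 is carried in the name table by 3 related genes, none of which passed between the strains. rad-54.L averaged 43.8 ± 2.66 CPM in atf-6 and 43.1 ± 2.35 CPM in wild type, and rad-54.B 41.4 ± 4.08 CPM in atf-6 and 43.2 ± 2.80 CPM in wild type (SD, n = 4 each). rad-54.L2 was at 116 ± 11.3 CPM in atf-6 and 114 ± 13.2 CPM in wild type. Their log2 fold changes were 0.03, -0.06 and 0.03 (SE 0.0698, 0.0839 and 0.0961).

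Reads of rad-51 were divided between transcripts that differ by only a few bases of length. Transcript Y43C5A.6c (1428 bases) received 17.7%, 27.8%, 59.98% and 12.8% of the gene's reads in atf-6 replicates 1 to 4, against 0.0680%, 10.9%, 0.154% and 10.01% in wild-type replicates 1 to 4. Nearly all other reads went to Y43C5A.6b (1422 bases). The groups did not overlap, but the lowest atf-6 share (12.8%) was close to the highest wild-type share (10.9%). How often the shares of other transcripts separate by strain was not counted. No test was made, and the comparison was picked after its values were seen.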
